A study of Macaca mulatta with 64 samples.

Results

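PPP1R1B encodes DARPP-32, a phosphoprotein regulated by dopamine and cAMP. Its transcription start positions were followed through 64 libraries of the rhesus macaque brain, made by CAGE-seq. Every row of the deposited table assigned to this gene was taken, which gave 107 of the 160389 positions and 1 of the 13269 genes. CAGE-seq is meant to sequence the 5′ ends of capped, polyadenylated RNA, so that a tag is taken to mark a place where a transcript began. Levels are given as tags per 1000000 tags of the library (TPM), summed over the positions of the gene unless a position is named, and without correction for length.

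The libraries came from healthy, socially housed macaques, euthanized with pentobarbital sodium, of 1, 4, 10 and 20 yr, females and males, with 2 animals of each sex at each age. Of the 8 regions, 5 were neocortical: occipital (OC), parietal (PC), temporal (TC), posterior cingulate (PCC) and prefrontal cortex (PFC). The others were the cortex of the cerebellum (CB) and, from the hippocampus, CA1 and the dentate gyrus (DG). Each region had 8 libraries, 1 per age and sex, and an age and sex together are termed an animal group. The study describes its RNA-seq libraries as 1 for each pair of animals matched in age and sex. Whether each CAGE-seq library likewise held RNA of both animals is not given in the sources used here. As these libraries were not repeated, errors and p-values for regions measure how differences between regions vary over animal groups, with age or sex among the sources. Those for age and sex measure what is left between animal groups after terms for age and sex. Both hold technical spread and the spread between animals or pools of them. All 8 regions were dissected from the brains of the same set of animals.

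DARPP-32 is a switch in dopamine signalling. Phosphorylated by protein kinase A after stimulation of dopamine D1 receptors, it inhibits protein phosphatase 1 (PP1) and so prolongs the phosphorylation of many targets, whereas phosphorylation by CDK5 turns it into an inhibitor of protein kinase A. Calcineurin removes the phosphate that makes it a PP1 inhibitor. The protein is best known from the projection neurons of the striatum, a region that was not sampled here, and it also occurs in the cortex and in other parts of the brain. A truncated form, t-DARPP, lacks the part that inhibits PP1 and was described in human tumors.

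The depth was estimated from the steps between low values, which gave 1510000 to 6090000 tags per library with a median of 3780000. The lowest listed value stood for 1.99 to 6.95 tags, so weaker positions are not seen. The number of positions listed for all genes was lowest, 644, in a CB library (10-yr-old females) and highest, 23670, in a CA1 library (20-yr-old females). Markers of cerebellar granule cells (CBLN1, CBLN3, NEUROD1 and others) summed to 1104 to 2260 TPM in the CB libraries and to at most 771 TPM in any other library. Markers of CA1 pyramidal cells could not check the CA1 label, since 3 of 5 were analysed, 2 were tested and neither was called between CA1 and DG. None of the 3 tested dentate granule cell markers was called between CA1 and DG either, and PROX1, which defines these cells, was listed in 1 CA1 library alone.

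PPP1R1B (ENSMMUG00000001405) lies on the plus strand of chromosome 16 at 49721194 to 49731530 in the MMUL 1.0 build, a span of 10337 nt. Its 107 positions reached from 311 nt upstream of the annotated start (-311 nt) to 10006 nt downstream of it, near the annotated end. The median gene had 6 positions. Of the 107 positions, 56 lay within 500 nt of the start, 30 of them upstream, and 51 lay farther inside the gene. The signal was far less spread than the positions. Positions within 500 nt held 92.2% of the summed PPP1R1B TPM and positions upstream of the annotated start held 87.0%.

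Most positions were seen once. There were 63 positions (58.9%) listed in a single library and 9 in at least 8 libraries. The authors clustered neighbouring tags in each library separately and give each cluster as 1 position, so the same promoter can be listed a few nucleotides apart in different libraries. Within a library no 2 positions of PPP1R1B lay closer than 20 nt. When positions less than 20 nt apart were joined over all libraries, 38 clusters remained.

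The leading position was at -99 nt. It was listed in 33 libraries and was the highest position of the gene in 26 of them. The position at -127 nt was listed in 16 libraries and was the highest in 11, and the position at -141 nt was listed in 9 and the highest in 6. These and 28 other positions joined into 1 cluster from -141 to 37 nt (chr16:49721053-49721231), referred to as the start cluster. The start cluster was listed in 60 of the 64 libraries and held 87.5% of the TPM of the gene. It was listed in all 8 libraries of every region except CA1, where 7 libraries had it, and CB, where 5 had it. Which transcripts begin there, and where in a cluster the highest tag lay, was not analysed here.

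The map of positions by library shows 2 further lines of recurrent positions far inside the gene. A cluster from 7130 to 7200 nt was listed in 36 libraries, among them 7 of CB, 6 of PFC and 6 of OC, with a median of 6.16 TPM where listed. Its main position at 7170 nt reached 454 TPM in PCC of 20-yr-old males and 360 TPM in CB of 20-yr-old females, and 83.6 TPM in OC of 4-yr-old males. A cluster from 2928 to 2954 nt was listed in 23 libraries, with a median of 12.6 TPM where listed and at most 85.1 TPM. It was listed in 7 libraries of CA1, 5 of CB, 4 of PCC, 4 of OC, 2 of PC and 1 of TC, and in no library of PFC or DG. Together with the start cluster, these were the clusters seen in the most libraries. Recurrence at the same nucleotides in many libraries is a description, and whether these RNAs carried a cap, or code for a short form, was not tested.

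**Figure D1:**
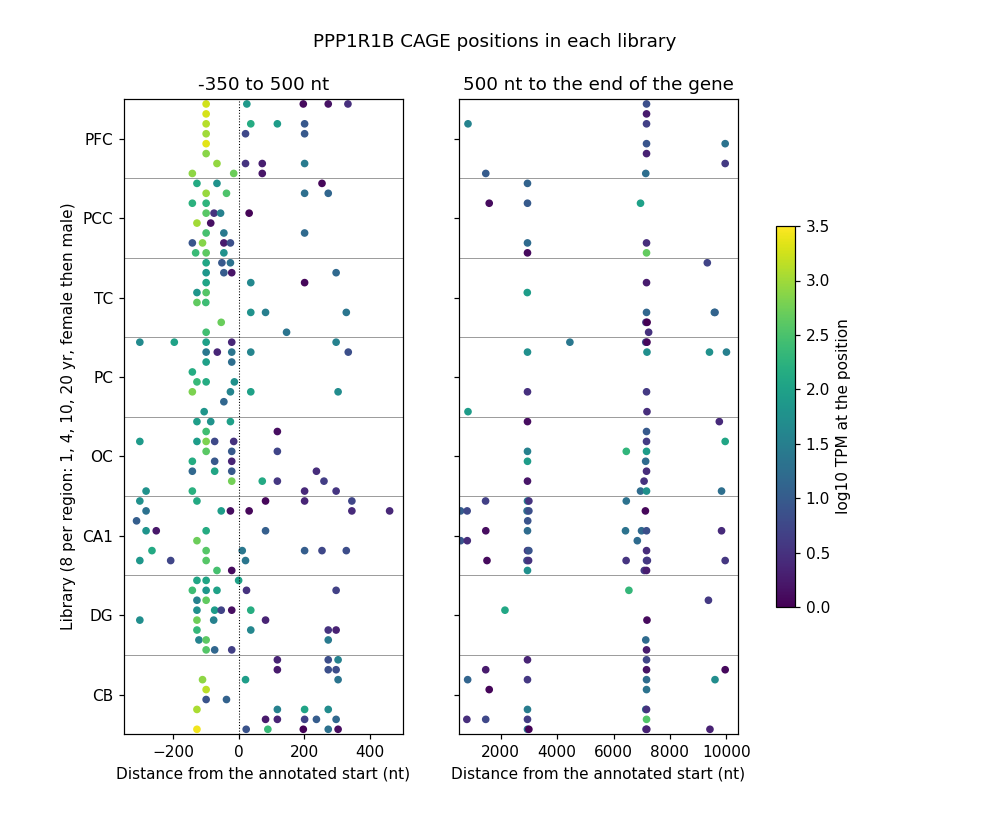
Positions of PPP1R1B in the 64 libraries. Each point is 1 listed position, its distance from the annotated start is on the horizontal axis (nt, left panel near the start, right panel inside the gene on another scale), each row is 1 library grouped by region, and the color gives log10 TPM. The highest values line up at -99 and -127 nt, and recurrent low values at 2946 and 7170 nt.

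Upstream of the start cluster, positions from -311 to -251 nt were listed in 10 libraries, 6 of them from CA1, 2 from OC, 1 from PC and 1 from DG. The highest of these values was 129 TPM, in CA1 of 10-yr-old males. Besides 7170 nt, 4 positions more than 500 nt inside the gene exceeded 100 TPM, each in 1 library. The position at 6545 nt had 205 TPM in DG of 1-yr-old males, that at 6452 nt had 193 TPM in OC of 4-yr-old males, that at 2147 nt had 123 TPM in DG of 4-yr-old males, and that at 9961 nt had 114 TPM in OC of 4-yr-old females. The positions at 6545 and 2147 nt were listed in no other library.

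PPP1R1B was listed in all 64 libraries, which was so for 54 genes (0.407% of all genes). Its level ranged from 14.4 TPM (52.0 tags) in PC of 20-yr-old females to 2974 TPM (11460 tags) in CB of 20-yr-old males, with a median of 422 TPM and a mean of 614 ± 578 TPM (SD, n = 64). In bulk tissue, fewer cells that express the gene and less RNA per cell cannot be told apart.

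The PFC had the highest levels among the regions. The 8 PFC libraries had 1853 and 1891 TPM in females and males of 1 yr, 1542 and 1018 TPM at 4 yr, 2218 and 760 TPM at 10 yr, and 887 and 1346 TPM at 20 yr. Of these values, 6 were above 1000 TPM, against 6 of the 56 libraries of the other regions. PFC was the highest of the 8 regions in 5 animal groups, and CB was the highest in the other 3, the males of 4, 10 and 20 yr.

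CB was the most variable region, with values that differed 149-fold between the lowest and the highest library. Its libraries had 50.6 and 20.0 TPM in females and males of 1 yr, 990 and 1413 TPM at 4 yr, 20.2 and 1377 TPM at 10 yr, and 407 and 2974 TPM at 20 yr. Both libraries of 1 yr and that of 10-yr-old females were thus under 100 TPM, while 4 libraries were at or above 990 TPM. The sums of granule and Purkinje cell markers did not separate the 3 low libraries from the other 5. Granule cell markers summed to 1600, 2260 and 2095 TPM in the 3 low libraries and to 1104 to 2214 TPM in the other 5, and Purkinje cell markers to 1657, 1698 and 2417 TPM against 771 to 2120 TPM. Single markers did set the library of 10-yr-old females apart. Its CBLN3 was 106 TPM, against 420 to 994 TPM in the other CB libraries, those of 1 yr among them. Its CALB1, on the Purkinje list, was the lowest of CB (529 TPM). The other genes of these lists went the other way in this library. They made up most of its granule and Purkinje sums (2095 and 2417 TPM), the latter being the highest of CB. Its oligodendrocyte (5596 TPM) and microglia (2456 TPM) marker sums were the highest of CB, but they rested on few genes. C1QC alone gave the microglia sum. CNP (2845 TPM) and MBP (2751 TPM) gave the oligodendrocyte sum, and MBP was higher, 3584 TPM, in CB of 10-yr-old males. Astrocyte markers summed to 0 TPM in CB of 10-yr-old females. This library also had the fewest positions of all libraries, 644. Those of 1-yr-old females and males had 6436 and 4678, the first being the most of any CB library. The part of library quality or of cell make-up in these levels was not tested.

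DG was the most even region, with 263 TPM at the lowest, a median of 450 TPM and 637 TPM at the highest, a 2.42-fold span, and the PFC libraries spanned 2.92-fold. PCC libraries lay between 207 and 1285 TPM with a median of 614 TPM, OC between 143 and 935 TPM with a median of 300 TPM, and TC between 95.3 and 697 TPM with a median of 228 TPM. The remaining regions each had 1 library far below the rest. CA1 had 18.7 TPM in 4-yr-old females and 160 to 568 TPM in its other libraries, and PC had 14.4 TPM in 20-yr-old females and 112 to 851 TPM in the others. The plot of levels by region shows these libraries well below the others.

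**Figure D2:**
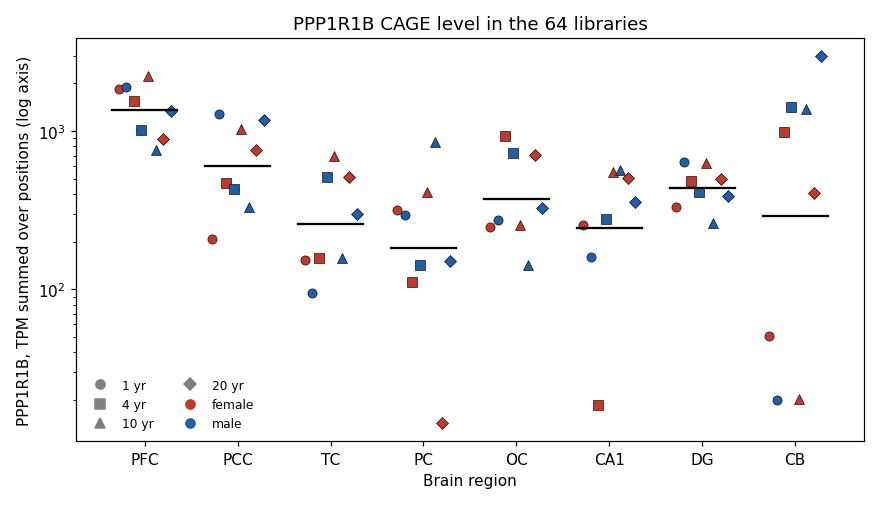
PPP1R1B level in each of the 64 libraries, as TPM on a log axis, by region. Points are single libraries (shape for age, color for sex) and bars are means of log2(TPM + 1), back-transformed, of 8 libraries, which are 1350 TPM in PFC and 183 TPM in PC, with the widest scatter in CB.

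Ordered by the mean of log2(TPM + 1) over the 8 animal groups, the regions ran from PFC (10.4) through PCC (9.23), DG (8.78), OC (8.55), CB (8.19), TC (8.02) and CA1 (7.93) to PC (7.52). The place of CB rests on this scale, since its arithmetic mean of 907 ± 1022 TPM (SD, n = 8) was second to the 1439 ± 527 TPM of PFC. All 28 pairs of regions were compared within animal groups by an exact sign-flip permutation test, two-sided, for which 0.00781 is the smallest possible p. Adjusted over the 28 pairs, 5 pairs passed at 0.05, all of them with PFC.

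PFC exceeded PCC by 1.17 ± 0.34 on the log2 scale (SE), TC by 2.38 ± 0.44, OC by 1.85 ± 0.41, CA1 by 2.47 ± 0.65 and DG by 1.62 ± 0.17, in 8 of 8 animal groups each. Each of these pairs had an exact p of 0.00781 and an adjusted p of 0.0437. The difference from PC was the largest, 2.88 ± 0.59, but PC was higher in the males of 10 yr, and its adjusted p was 0.0625 by the same exact test. PFC and CB differed by 2.21 ± 1.19, with PFC higher in 5 of 8 groups and an adjusted p of 0.344 by the exact test. Among neighbours in the order of regions, PFC and PCC differed beyond their spread, and the other 6 neighbouring pairs did not, from PCC and DG (0.45 ± 0.25) to CA1 and PC (PC lower by 0.41 ± 0.78 on the log2 scale, -0.41 as PC minus CA1).

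The 5 pairs passed together, at the smallest p the design allows. After quantile normalization and after rescaling to the listed TPM, PFC was higher in all 8 groups in 3 pairs and no pair passed (smallest adjusted p 0.0729 by the exact test), although PFC stayed higher on average in all 7 pairs. Without PFC of 20-yr-old females, 7 groups were left, in which no p under 0.0156 is possible, and no pair passed.

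**Figure D3:**
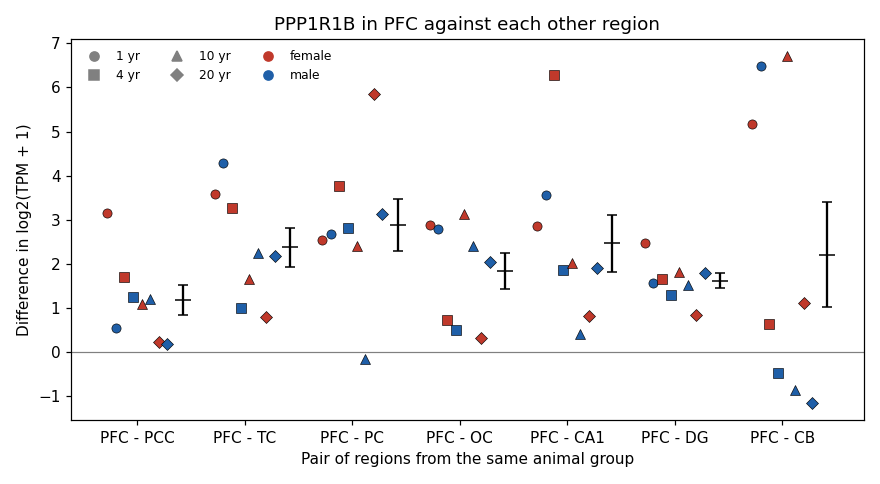
Difference in log2(TPM + 1) of PPP1R1B between PFC and each other region, within the 8 animal groups (points, shape for age, color for sex), with the mean and its SE at the right of each group. All 8 points are above 0 for PCC, TC, OC, CA1 and DG, 7 for PC and 5 for CB.

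The same question was asked in a model of 6106 genes, those that reached 1 TPM in 8 or more libraries, fitted with limma to log2(TPM + 1) with region and animal group as terms and Benjamini-Hochberg adjustment over all genes. PFC against the other 4 neocortical regions, a contrast added after the values were seen, gave PPP1R1B a difference of 2.07 ± 0.62 (SE, 95% interval 0.82 to 3.32) and an unadjusted p of 0.00156 from limma, but an adjusted p of 0.142. In this contrast 0.311% of genes were called, 0.278% higher in PFC and 0.0328% lower. The test within animal groups and this one differ in what they adjust for, 28 pairs of 1 gene against 6106 genes.

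In no other contrast of regions did PPP1R1B pass with limma. CB against the other 7 regions gave -0.44 ± 0.59 (interval -1.63 to 0.75) with an adjusted p of 0.729, in a contrast that called 2.23% of genes, 0.884% higher in CB and 1.34% lower. The sign of this value turned with 1 low library, since it was 0.21 without CB of 10-yr-old females, and 0.11 without the animal group of 1-yr-old males. Hippocampus against neocortex gave -0.39 ± 0.47 (interval -1.32 to 0.54, adjusted p = 0.674), where 8.19% of genes were called and the median gene was higher in hippocampus by 0.55. CA1 against DG gave -0.84 ± 0.79 (interval -2.42 to 0.73, adjusted p = 0.463). Here the median gene was higher in CA1 by 1.37 and 19.4% of genes were called, most of them higher in CA1, which had 7001 to 23670 positions per library against 1696 to 7596 in DG. PPP1R1B had a value opposite in sign to the median gene in both contrasts, but both of its intervals spanned either sign. Without CA1 of 4-yr-old females and the other libraries of that animal group, its CA1 to DG difference was -0.30.

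Of 11 markers of striatal projection neurons, the cells best known for DARPP-32, 6 were not analysed here. DRD1 and PDE10A were at 0 in all 8 PFC libraries, but they were listed in only 2 and 1 of all 64 libraries. The list summed to 0 to 372 TPM in PFC. Its mean of 57.0 TPM there was the highest of the 8 regions, followed by 46.6 TPM in CA1. By median, PFC had 7.29 TPM, below the 48.4 TPM of CA1 and the 28.5 TPM of PC. The 372 TPM, of which TAC1 made up 325 TPM, was found in PFC of 10-yr-old males, the library with the lowest PPP1R1B level of that region. PENK was listed in 4 PFC libraries, the most of any region, and differed from the other neocortex by 1.37 ± 0.60 (adjusted p = 0.418 with limma). In contrast, FOXP1 was listed in 8 libraries of CA1 and 1 of PFC. TAC1 was listed in 4 libraries of CA1, 4 of PC and 2 of PFC. The part of such cells in the PPP1R1B level was not tested. Among the markers of deep cortical layers, TLE4, FEZF2 and CRYM were tested and none was called between PFC and the other 4 neocortical regions, nor was any of the 4 tested oligodendrocyte, 6 astrocyte or 7 GABAergic neuron markers, in a contrast that called 0.311% of all genes. CALB1, a calcium-binding protein listed here for upper layers, dentate granule cells and Purkinje cells, was called higher in PFC (3.68 ± 0.88, adjusted p = 0.0395 with limma). Its median was 52.6 TPM in PFC and 58.6 TPM in TC, and it was listed in 1 library of PCC, 4 of PC and 4 of OC. CUX1, the other upper-layer gene tested, had -0.22 ± 0.72 (adjusted p = 0.963 with limma).

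Where the tags of PPP1R1B lay also differed between libraries. In PFC the position at -99 nt carried 1766 and 1889 TPM in females and males of 1 yr, 1270 and 1003 TPM at 4 yr, and 2188 and 758 TPM at 10 yr. It was not listed in either PFC library of 20 yr, where the highest positions were at -66 nt in females (95.8% of the TPM) and at -141 nt in males (59.4%), both in the start cluster. In PFC, 97.3 to 100% of the TPM lay within 500 nt of the start, and 91.3 to 99.9% lay in the start cluster. The share within 500 nt was above 90% in 43 of the 64 libraries and below 50% in 3, which were PC of 1-yr-old males (32.2%), PC of 20-yr-old males (44.1%) and CB of 20-yr-old females (8.38%). In the last of these, 88.5% of the TPM was at 7170 nt. In PC of 1-yr-old males the highest position was at 9404 nt with 19.6% of the TPM, and in PC of 20-yr-old males at 835 nt with 54.0%.

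No tag was listed in the start cluster in 4 libraries. These were CB of 1-yr-old females, with 67.4% of its 50.6 TPM at 303 nt, CB of 1-yr-old males, with 35.3% of its 20.0 TPM at 273 nt, CB of 20-yr-old females and CA1 of 4-yr-old females, with 57.0% of its 18.7 TPM at -311 nt. Low totals did not always go with other positions, since PC of 20-yr-old females (14.4 TPM) and CB of 10-yr-old females (20.2 TPM) had all their TPM in the start cluster.

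**Figure D4:**
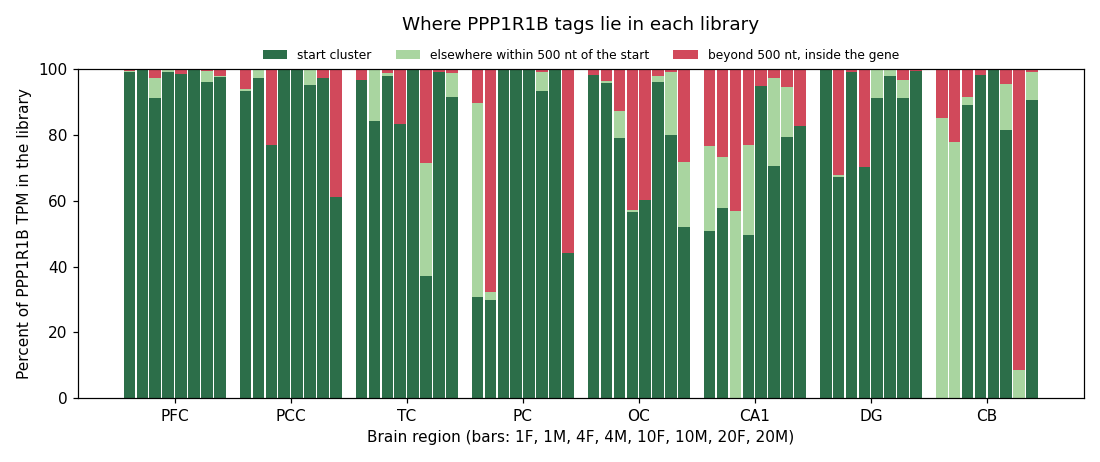
Percent of the PPP1R1B TPM of each library that lay in the start cluster (-141 to 37 nt), elsewhere within 500 nt of the start, and farther inside the gene. Bars are single libraries in the order 1F, 1M, 4F, 4M, 10F, 10M, 20F and 20M (age in yr, F female, M male); PFC bars are nearly all start cluster, and CB of 20-yr-old females is nearly all inside the gene.

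The share of the start cluster averaged 97.8 ± 2.86% in PFC (SD, n = 8), 90.3 ± 13.9% in PCC, 89.6 ± 13.4% in DG, 86.3 ± 20.9% in TC, 77.3 ± 19.0% in OC, 74.8 ± 33.4% in PC, 60.8 ± 29.4% in CA1 and 57.5 ± 48.0% in CB. A permutation test of regions within animal groups (100000 resamples) gave p = 0.0368 for a difference between regions in this share. It takes regions as exchangeable, so it cannot tell a shift in the share from its unequal spread, with SDs of 2.86 to 48.0%. For the single position at -99 nt, which was the measure chosen first, the same permutation test gave p = 0.106, and for the share within 500 nt, added after the values were seen, p = 0.490. The 3 measures overlap and their p-values are not adjusted for one another.

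The use of positions within the gene was compared with diffSplice of limma, which sets the difference of each position against that of the other positions of the gene. For positions as listed, 9 of which passed the filter, PPP1R1B was not called in CB against the other regions (adjusted p = 0.114, 0.87% of 1265 genes called) or in hippocampus against neocortex (adjusted p = 0.494, 3.4% called). With positions less than 20 nt apart joined, it was called in CB with an adjusted p of 0.000224 by diffSplice, where 2.08% of 1539 genes were called. The start cluster was lower relative to the other clusters in CB, by -3.51 on the log2 scale, while clusters at 237 to 273 nt, 297 to 303 nt and 7130 to 7200 nt had values of 1.61, 1.36 and 1.53 that did not pass alone. This call was lost without CB of 20-yr-old females (adjusted p = 0.0537 by diffSplice) and without the 1-yr-old females (0.0696), each of which lacked the start cluster in CB. In the 5 CB libraries that listed the start cluster, it held 81.7 to 100% of the TPM. Of those without it, the libraries of 1 yr had only 50.6 and 20.0 TPM in all. Clusters near 0 TPM cannot fall further, so the test cannot tell a low total from a lower use of the start cluster.

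In hippocampus against neocortex, joined positions gave an adjusted p of 0.0658 for the gene, with 5.46% of genes called. The cluster from -311 to -251 nt, listed in 6 CA1 libraries and in 1 DG library, passed alone, with 2.12 relative to the other clusters and an adjusted p of 0.0101 by diffSplice. CA1 libraries had the highest median number of PPP1R1B positions, 2 to 11 with a median of 9, against 1 to 11 with a median of 5 over all libraries, and also listed the most positions over all genes on average. The part of that in the upstream cluster was not tested.

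For age and sex, the level of each animal group was averaged over its 8 regions. The group means were 427 and 582 TPM in females and males of 1 yr, 589 and 617 TPM at 4 yr, 727 and 556 TPM at 10 yr, and 536 and 878 TPM at 20 yr. The ranges of the 4 younger and 4 older groups overlapped, as did those of females and males. Animals of 10 and 20 yr exceeded those of 1 and 4 yr by 0.43 ± 0.42 on the log2 scale (interval -0.53 to 1.38, adjusted p = 0.803 with limma). Females and males differed by -0.33 ± 0.42 as female minus male (interval -1.28 to 0.63, adjusted p = 0.977 with limma). With limma, 0% of genes were called in either comparison, and 549 and 321 of the 6106 genes had an unadjusted p under 0.05. The value for age was 0.08 over the neocortical regions alone.

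The regions did not share one course with age in the plot of levels by age. In CB the 2 libraries of 1 yr had 50.6 and 20.0 TPM and those of 20 yr 407 and 2974 TPM, with 20.2 TPM in 10-yr-old females between them. In CA1 the 4 libraries of 10 and 20 yr had 359 to 568 TPM, all above the 18.7 to 280 TPM of the 4 libraries of 1 and 4 yr. In PFC the means over both sexes were 1872 TPM at 1 yr, 1280 TPM at 4 yr, 1489 TPM at 10 yr and 1117 TPM at 20 yr. In DG they stayed between 442 and 485 TPM at all ages. These are descriptions of 2 libraries per age. A test of whether the difference between older and younger animals varied between regions gave an adjusted p of 0.969 with limma, and the same test for sex an adjusted p of 1, with 0% of genes called in each and 454 and 262 genes at an unadjusted p under 0.05. Males had more than females at 3 of 4 ages in CB and PC, females at 3 of 4 ages in TC, OC and DG, and each sex at 2 ages in PFC, PCC and CA1.

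**Figure D5:**
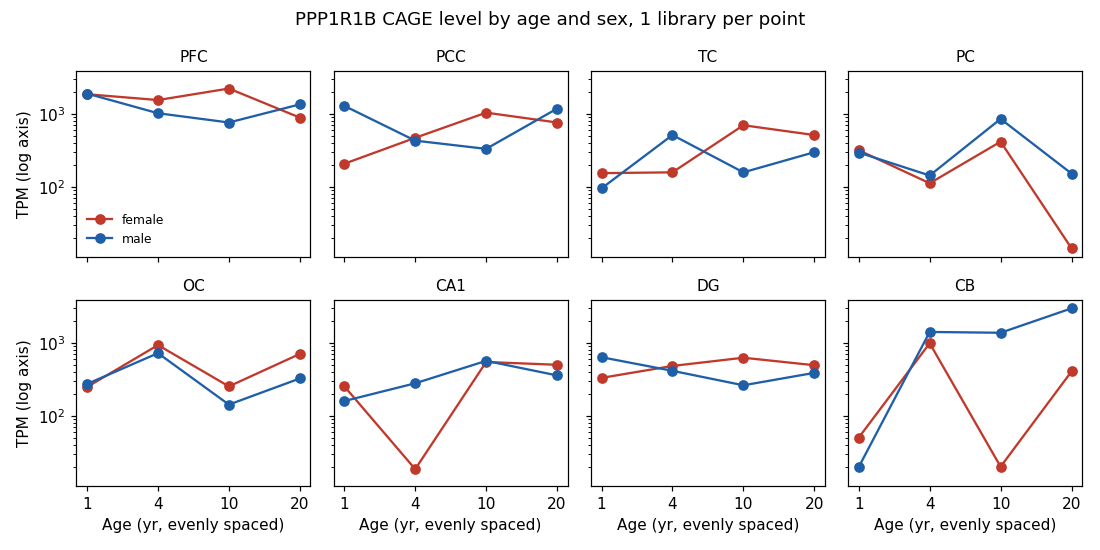
PPP1R1B TPM (log axis) by age in each region, with lines for females and males and 1 library per point; ages of 1, 4, 10 and 20 yr are evenly spaced. CB shows the widest range, from 20.0 to 2974 TPM, and DG the narrowest.

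Of the proteins that act on DARPP-32 or are controlled by it, a list of 60 genes of dopamine, cAMP, protein kinase A and PP1 signalling was followed, of which 44 were analysed and 30 passed the filter. No dopamine receptor passed. DRD1, the D1 receptor, was listed in 2 libraries, neither from PFC, and the other 4 receptors were not analysed here. PPP1CA, a catalytic subunit of PP1, was listed in 57 libraries with 216 ± 272 TPM (SD, n = 64), and PPP1CC, another, in 2, while PPP1CB was not analysed here. CDK5 was listed in 58 libraries with 117 ± 132 TPM. The catalytic subunits of protein kinase A, PRKACA and PRKACB, were listed in 4 and 9 libraries, and those of calcineurin, PPP3CA, PPP3CB and PPP3CC, in 15, 10 and 6, and PPP3R1 was not analysed here. PPP1R1A, the PP1 inhibitor most like DARPP-32, was listed in 57 libraries with 166 ± 227 TPM.

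None of the 30 genes was called by limma in PFC against the other neocortical regions, a contrast that called 0.311% of all genes. Their median difference there was 0.16 against 0.15 for all genes tested. In CB against the other regions, where 2.23% of all genes were called, none was called either, with a median of -0.40 against -0.43 for all genes. With so few genes called at all, these counts do not set the list apart. PPP1CA had 2.98 ± 0.96 in CB against the other regions and an adjusted p of 0.0907 with limma. In hippocampus against neocortex, 2 rose and 1 fell, with background shares of 7.98% and 0.213%. PDE4B (1.66 ± 0.32, adjusted p = 0.000624 with limma) and PDE1A (1.77 ± 0.56, adjusted p = 0.0373) were higher in hippocampus. Both are phosphodiesterases, which break down cyclic nucleotides. RGS4 (-2.04 ± 0.68, adjusted p = 0.0499), a regulator of G protein signalling, was lower. Within the hippocampus, PDE4B was listed in 8 libraries of CA1 and 0 of DG, and PDE1A in 7 of CA1 and 2 of DG. The mean of PDE1A was 27.8 TPM in CA1 and 24.9 TPM in DG, below the 35.0 TPM of PC. When each animal group was left out in turn, 1 to 3 genes of the list were called.

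In CA1 against DG, 5 of the 30 genes were higher and 1 was lower, beside 18.5% and 0.852% of all genes. PDE4B (3.93 ± 0.55), GNAI1 (3.18 ± 0.79), PDE4D (4.50 ± 1.46), GNAS (3.66 ± 1.29) and PDE1A (2.68 ± 0.94) were higher in CA1, where the median gene was higher by 1.37. GNAI1 and GNAS encode G protein subunits that inhibit and stimulate the making of cAMP. The calcineurin subunit PPP3CB was lower in CA1 (-2.38 ± 0.78). No gene of the list was called for age, for sex or for an interaction with region, where 0% of all genes were called.

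The genes whose levels were most like that of PPP1R1B over the 64 libraries, of 4781 genes with a symbol, were ASPHD1 (Pearson r of 0.505 on log2(TPM + 1)), DDX39B (0.487), ALDOA (0.463), FKBP8 (0.38) and EDF1 (0.362). ALDOA encodes the glycolytic enzyme aldolase A, DDX39B an RNA helicase of mRNA export. ASPHD1 also had its highest mean in PFC, 15639 TPM, and was listed in all libraries. After the means of regions and animal groups were removed, the highest values were those of DDX39B (0.458), CBLN3 (0.455), ASPHD1 (0.441), BCAN (0.415) and TMCC2 (0.409). CBLN3, a secreted protein of cerebellar granule cells, was listed in 9 libraries, so its value rests on those of CB. The points of these correlations share libraries, depth and animals. The level of PPP1R1B itself had a correlation of -0.057 with the log2 number of positions in the library, of -0.185 with log2 tags and of 0.227 with the percent of tags that were listed.

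Of the genes beside PPP1R1B, NEUROD2, a neuronal transcription factor on the opposite strand 18768 nt away, was listed in 44 libraries with 35.9 ± 52.2 TPM (SD, n = 64). STARD3, which encodes a cholesterol-transfer protein and starts 444 nt past the end of PPP1R1B, was listed in 21 libraries with 14.9 ± 54.7 TPM, and CDK12 was listed in 1. Of 12 genes from the region of the chromosome around PPP1R1B, 6 were analysed and 3 tested, and 1 of these was called in hippocampus against neocortex, where 7.98% of all genes were called higher. This was STARD3, higher in hippocampus by 1.94 ± 0.62 (adjusted p = 0.0414 with limma), with the median gene higher by 0.55. In PFC against the other neocortical regions, which called 0.311% of all genes, none of the 3 was called. Their median difference was 1.97 against 0.15 for all genes. CACNB1, a calcium channel subunit with its highest regional mean in PFC (292 TPM), had 4.21 ± 1.14 (adjusted p = 0.0705 with limma), NEUROD2 had 1.97 ± 0.94 (adjusted p = 0.486) and STARD3 had -0.33 ± 0.83 (adjusted p = 0.954).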

How the data were processed

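CAGE-seq was done by the authors on 64 samples. Reads were filtered with the FASTX-Toolkit, aligned to the macaque genome (MMUL 1.0, Ensembl) with TopHat2, and kept where unique. The authors took 5′ ends as start sites, clustered those under 20 nt apart in each sample, and deposited each cluster as 1 position. The deposited values, called TPM, are RPM values, tags per 1000000 tags of the library, and none above 0 was below 1. Gene IDs were named with a table of Ensembl symbols.

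Here positions were summed per gene. Genes reaching 1 TPM in 8 or more libraries entered moderated limma 3.58.1 tests (R 4.3.3) of log2(TPM + 1), with terms for region and animal group and Benjamini-Hochberg adjustment. Tests of age and sex took the 8 animal-group means. Region pairs used exact sign flips, shares used permutations within animal groups, and positions used diffSplice, all two-sided. The tests were checked on simulated data. Tags per library were estimated from the steps of the low values (99.9 to 100% of them, rounded, were whole within 0.1 tag). Animal groups pair regions since all regions were dissected from the same set of animals. Deviations of libraries of the same age and sex from their region means had a median correlation of 0.009, against -0.002 for others, over genes.

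The gene, the lists and the tests were chosen with earlier results of these data known. Named genes were PPP1R1B, its 5 most similar genes by each measure, list members called in a region contrast, and receptors, kinases and phosphatases fixed by name; neighbours and PPP1R1A were added. Alternatives were quantile normalization, rescaling to the listed TPM, no filter, a pseudocount of 0.25 TPM, positions of at least 2 TPM, within 500 nt, or the highest alone, joined positions, neocortical means, a random effect, no block, and leaving out libraries or animal groups. No genome sequence was used, so no sequence is printed. Python 3.11.15, NumPy, pandas, SciPy and Matplotlib were used.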

Additional observations from a re-analysis of the deposited data

Results flagged for a closer look

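Among the 8 libraries of a region, PPP1R1B values were searched for a single library far from the rest, by the gap to its neighbour as a share of the range of the region. In 32 groups of 8 libraries and over 4 measures, 7 values stood apart. The cutoff marks about 1 group in 20 by chance where values are normally distributed. TPM and shares were skewed here, and the same tags entered more than 1 measure. The number of marked values therefore cannot be set against that rate, and the 7 values are given as a description. Of these, 2 concern the level: CB of 20-yr-old males had 2974 TPM, with the next CB library at 1413 TPM, and CA1 of 4-yr-old females had a log2(TPM + 1) of 4.30, from 18.7 TPM, with the next CA1 library at 160 TPM.

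The other 5 concern tags far from the start. CB of 20-yr-old females had 8.38% of its TPM within 500 nt, with the next CB library at 77.9%, and 373 TPM beyond 500 nt, with the next at 84.5 TPM. PCC of 20-yr-old males had 456 TPM beyond 500 nt, next to 107 TPM in PCC of 4-yr-old females. PC of 1-yr-old males had 200 TPM beyond 500 nt and OC of 4-yr-old males had 310 TPM. In 14 libraries no tag was listed beyond 500 nt. Whether these values come from the animals or from the libraries cannot be told apart with 1 library per region, age and sex.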

How the results depend on the processing

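None of the 116 alternative values of the 6 differences in level, nor the 32 of the 2 interactions, was called by limma (lowest adjusted p 0.0613 and 0.851). The difference of PFC from other neocortex stayed between 1.93 and 2.54. CB against the other regions turned to 0.21 without CB of 10-yr-old females and to 0.11 without the 1-yr-old males, and lay between -0.90 and 0.21 when each animal group was left out. The 28 pairs gave 5 calls, 6 within 500 nt, 7 for the highest position, 0 after quantile normalization, rescaling to the listed TPM or leaving out PFC of 20-yr-old females, and 0 without each animal group, where the smallest p is 0.0156. For position use in CB, F rose from 3.14 to 5.51 with joined positions and had an adjusted p of 0.0137 (F 2.49) with positions in at least 4 libraries, and F ranged from 2.29 to 4.10 when each animal group was left out, with calls without 4-yr-old males and 10-yr-old females. With joined positions it was 3.11 without CB of 20-yr-old females and 3.11 to 6.99 without each group, and in hippocampus 2.31 to 3.25, called without 20-yr-old males. The share at -99 nt gave F 1.82, 2.37 when joined, and 1.23 to 2.55 without each group, with p = 0.0307 by permutation without 20-yr-old females. Without the animal-group block (no pairing), CB against the other regions was -0.44 (adjusted p = 0.720 with limma), and no call changed. The cause of these changes was not tested. Positions under about 2 to 7 tags are not seen.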
